A study of Homo sapiens with 39 samples.

Results

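The nuclear receptors for retinoids were followed through a microarray study of 7 human acute myeloid leukemia lines given tamibarotene or its vehicle. The receptors described are the retinoic acid receptors RARA, RARB and RARG and the retinoid X receptors RXRA and RXRB. RXRG, the third retinoid X receptor, has 2 probe sets of its own on the array and is given with the partners of RXR. Every probe set (a group of short probes designed for the same transcript) was taken whose platform annotation names 1 of these 5 symbols and no other gene. This gave 5 genes of the 18132 that the annotation names alone on a probe set, and 25 probe sets of the 49395 on the array, 10 for RARA, 3 for RARB, 5 for RARG, 2 for RXRA and 5 for RXRB. Each probe set is described on its own, because probe sets of the same receptor disagreed. 17 of the 25 passed a filter at the median of all probe sets' means, none of them for RARB.

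Tamibarotene, also named SY-1425, is a synthetic retinoid that activates RARA. The drug was added at 100 nM, which left 50 nM in the culture, or dimethyl sulfoxide was added as vehicle, and cells were collected after 24 h. The established lines used were Sig-M5, OCI-M1, OCI-AML3, KG-1a, NOMO-1, MV-4-11 and Kasumi-1. There were 21 tamibarotene arrays, 3 for each line, and 18 vehicle arrays, 2 for Sig-M5, KG-1a and Kasumi-1 and 3 for each other line. The labels do not say that replicates were separate cultures, so the p-values measure the spread between these samples, which may be technical.

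Retinoic acid receptors bind DNA together with a retinoid X receptor, commonly at pairs of short repeated motifs near target genes. Without ligand the pair holds a corepressor complex on the gene, and a retinoid replaces it with coactivators. The pathway is best known in this tissue from acute promyelocytic leukemia, in which RARA is fused to another gene and retinoids drive the leukemic cells to mature. RARB is itself a classical target of retinoic acid, through a response element in its promoter. Retinoid X receptors also pair with the receptors for vitamin D, thyroid hormone and fatty acids.

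That response element could be found among the promoter windows that RefSeq gives for the 5 receptors on GRCh38.p14. There were 12 such windows of 300 bases, 3 for RARA, 4 for RARB, 1 for RARG and 2 each for RXRA and RXRB. They were searched on both strands for direct repeats of the motif AGGTCA or its variants (AGTTCA and also GGGTCA, with GGTTCA as the last), spaced by 1, 2 or 5 bases. 1 window held a match, a repeat spaced by 5 bases in RARB. It lies at chr3:25428210-25428226 on the plus strand, and its first base is 53 bases before the annotated start. The stretch before that start, chr3:25428013-25428262, is shown with the repeat and its spacer in capitals. It was chosen because RARB rose in OCI-AML3 by 2 of its 3 probe sets.
RARB: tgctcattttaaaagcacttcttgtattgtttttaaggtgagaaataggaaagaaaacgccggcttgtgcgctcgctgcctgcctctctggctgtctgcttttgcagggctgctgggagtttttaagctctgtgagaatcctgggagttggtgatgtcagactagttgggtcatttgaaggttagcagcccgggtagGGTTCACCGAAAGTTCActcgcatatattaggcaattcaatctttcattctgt
A repeat spaced by 5 bases was in 31 of all 35116 RefSeq windows, 0.0883%. Spacings of 1 and 2 bases were in 0.131% and 0.0399% of windows, and a single copy of the motif was in 38.6%. A match describes the letters only, and receptor binding was not measured.

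Values are log2 intensities as deposited, and changes are tamibarotene minus vehicle on that scale, with the standard error (SE) of a linear model over all 39 arrays. A probe set was called at an adjusted p under 0.05 in limma, adjusted over all 49293 probe sets that are not controls. Array medians ran from 5.01 to 5.17. CD38, a surface enzyme known as a retinoic acid target in blood cells, rose in each of the 7 lines, by at least 0.92 (in OCI-M1) and at most 7.18 (in MV-4-11). Of the 6 blood and myeloid markers 4 were measured, and their mean level was lowest in OCI-M1, at 7.17, and highest in Sig-M5, at 9.85. Myeloperoxidase (MPO) had the widest range of them, from 4.03 in OCI-M1, near the bottom of the scale, to 13.87 in Sig-M5. The other markers were lowest elsewhere, PTPRC in Kasumi-1 (5.11), SPI1 in KG-1a (4.85) and LAPTM5 in Sig-M5 (10.07). Markers of other cell types, 11 of 12 measured, averaged 3.90 in OCI-AML3 to 4.86 in KG-1a, where the T cell gene CD3D stood at 12.26, and the epithelial gene EPCAM stood at 9.22 in Kasumi-1. The 3′ minus 5′ difference of the beta-actin control probe sets, which grows as RNA breaks down, was 0.31 to 0.34 in treated Sig-M5 arrays against 0.81 and 1.89 in vehicle replicates 1 and 2. In Kasumi-1 it was 0.20 to 0.22 in treated arrays against 1.18 and 0.30 in vehicle replicates 2 and 3, and it was -0.02 to 0.56 in the 35 arrays other than the vehicle arrays of these lines. Within that range OCI-M1 also had higher vehicle values, 0.11, 0.52 and 0.56, against 0.10 to 0.24 in its treated arrays.

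Over the 7 lines, 16 of the 175 pairs of receptor probe set and line were called, 4 higher and 12 lower with tamibarotene. That is 9.14% of the pairs, against 7.21% of the pairs of all probe sets and lines (3.58% higher and 3.63% lower). The calls were RARB higher in OCI-AML3 and NOMO-1, RXRA lower in MV-4-11, OCI-AML3 and Sig-M5, RARA lower in Sig-M5, and 1 RXRB probe set higher in Sig-M5. In MV-4-11 2 of the 25 probe sets were called, both lower, where limma called 6.02% of all probe sets (3.45% higher and 2.57% lower). In OCI-AML3 2 were higher and 2 lower, where 8.97% of all were called, in NOMO-1 1 was higher, where 2.85% were called, and in Sig-M5 1 was higher and 8 lower, where 26.6% were called. None of the 25 was called in Kasumi-1 (2.93% of all probe sets), KG-1a (2.11%, with 0.885% higher and 1.23% lower) or OCI-M1 (0.996%). At an unadjusted p under 0.05 there were 6 receptor probe sets in Kasumi-1 and 0 in KG-1a and OCI-M1. The share of all probe sets at that threshold was not counted in this fit. With each line fitted alone it was 8.76% in Kasumi-1, 19.6% in KG-1a and 7.71% in OCI-M1. In all 16 called pairs the treated arrays lay wholly on 1 side of the vehicle arrays. The pairs were picked by a test on the same values, so this adds no support to the calls. Such separation was not counted over all probe sets.

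**Figure D1:**
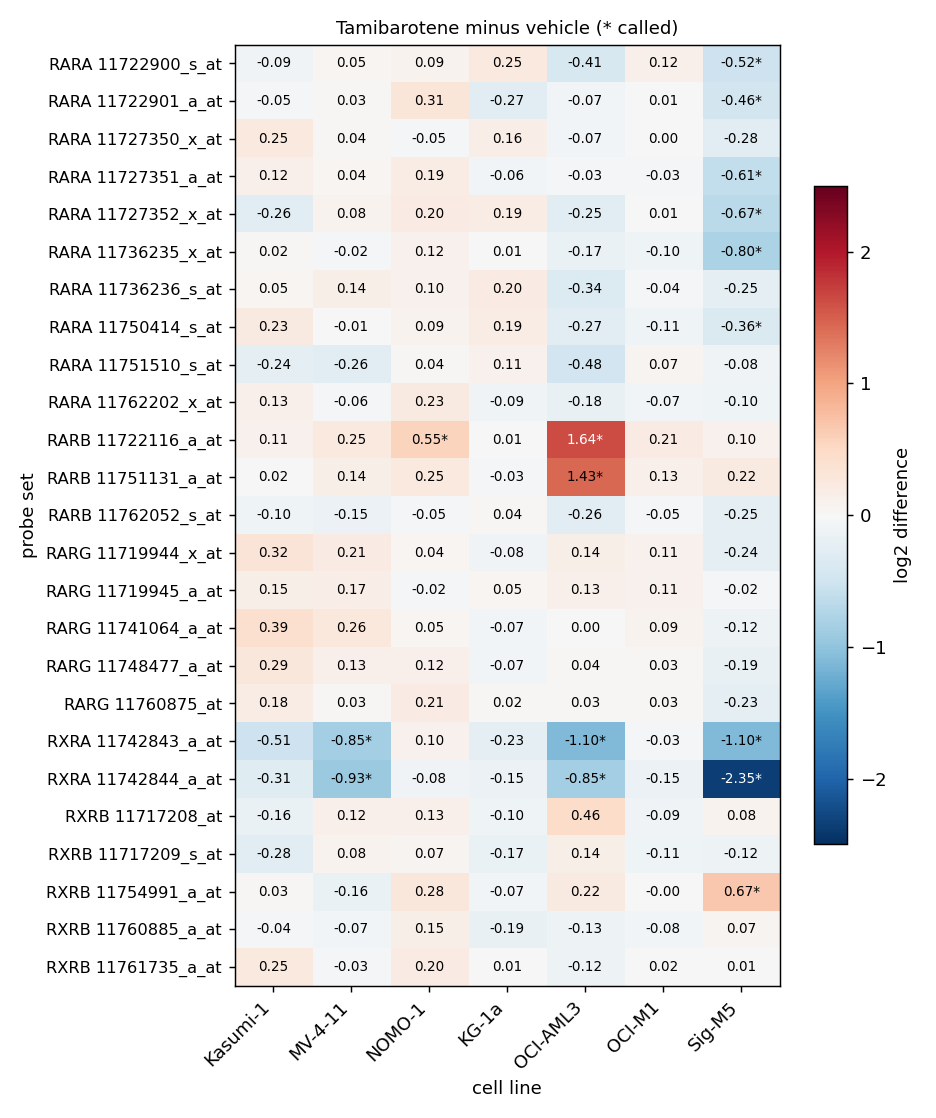
Tamibarotene minus vehicle (log2 difference, colour and printed value) for each of the 25 receptor probe sets (rows) in each of the 7 lines (columns); an asterisk marks a call at an adjusted p under 0.05 in limma. RARB stands out as higher in OCI-AML3 by 1.64 and 1.43, and RXRA as lower in MV-4-11, OCI-AML3 and Sig-M5, down to -2.35.

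RARB, a receptor that retinoic acid induces in many tissues, rose in OCI-AML3 by 2 of its 3 probe sets. By 11722116_a_at (designed on NM_000965.3) the treated OCI-AML3 arrays read 5.61, 5.44 and 5.60, against 3.86, 3.97 and 3.91 in vehicle. By 11751131_a_at they read 5.05, 4.51 and 4.80, against 3.41, 3.37 and 3.30 in vehicle. All 6 treated readings were above every vehicle reading of the same probe set, in this line and in the other 6. The changes were 1.64 ± 0.14 (SE, adjusted p = 3.07e-10 in limma) and 1.43 ± 0.14 (adjusted p = 5.07e-09), in a line where 4.51% of all probe sets were called higher. Both probe sets are dim, with means at the 31.2 and 26.4 percentiles of all probe sets, and no detection call was used here, so the changes depend on the floor of the scale and no fold is given. In bulk samples, more cells with RARB and more RARB RNA per cell cannot be told apart.

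In NOMO-1 the first of these probe sets rose and the second did not pass the test. By 11722116_a_at the treated arrays read 4.25, 4.30 and 4.53, against 3.84, 3.70 and 3.89 in vehicle, a change of 0.55 ± 0.14 (adjusted p = 0.025 in limma, 2.03% of probe sets called higher). The groups did not overlap, but the call was lost in 6 of 12 alternatives, among them leaving out treated replicate 2 or 3 or vehicle replicate 1, 2 or 3 (changes of 0.46 to 0.59, adjusted p up to 0.155) and NOMO-1 fitted on its own arrays (adjusted p = 0.13). By 11751131_a_at the change was 0.25 (adjusted p = 0.478), and the groups overlapped.

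In the remaining 5 lines neither probe set was called, and the changes lay between -0.03 and 0.25. The change in OCI-AML3 exceeded the mean of the other 6 lines by 1.43 ± 0.15 (adjusted p = 6.86e-08 in limma) and 1.31 ± 0.15 (adjusted p = 3.51e-07), a test added after the values had been seen, which called 5.91% of all probe sets for this line. Averaged over the 7 lines both probe sets rose (7.93% of all probe sets were called higher in this average), by 0.41 ± 0.06 (adjusted p = 2.15e-06) and 0.31 ± 0.06 (adjusted p = 0.000142), and OCI-AML3 carried most of that average.

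The third RARB probe set, 11762052_s_at, gave no call in any line. In OCI-AML3 its treated arrays read 4.03, 4.44 and 4.23, against 4.28, 4.58 and 4.63 in vehicle, a change of -0.26 (adjusted p = 0.218 in limma) in overlapping groups. Over the 7 lines its changes ran against those of the other probe sets, with Pearson's r of -0.55 and -0.67, whereas those of the other pair correlated at 0.978. These are descriptions over 7 points that share arrays. This probe set had the highest mean of the 3 over the 39 arrays, so an analysis that keeps the brightest probe set for each gene shows no RARB rise.

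In vehicle arrays RARB lay low on the scale in every line. All 3 probe sets fell below 5.15, the median of the probe sets' means, and none passed a filter at that value. Vehicle means ran from 3.59 to 3.92 by 11722116_a_at, 3.36 to 3.91 by 11751131_a_at and 4.42 to 4.85 by 11762052_s_at. No neighbours in these 3 orders of lines differed beyond the 95% interval of their difference. The moderated F test across the 7 vehicle means gave adjusted p = 0.234, 0.0347 and 0.00421 for the 3 probe sets, and the 2 that passed had different highest lines, Sig-M5 and Kasumi-1.

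**Figure D2:**
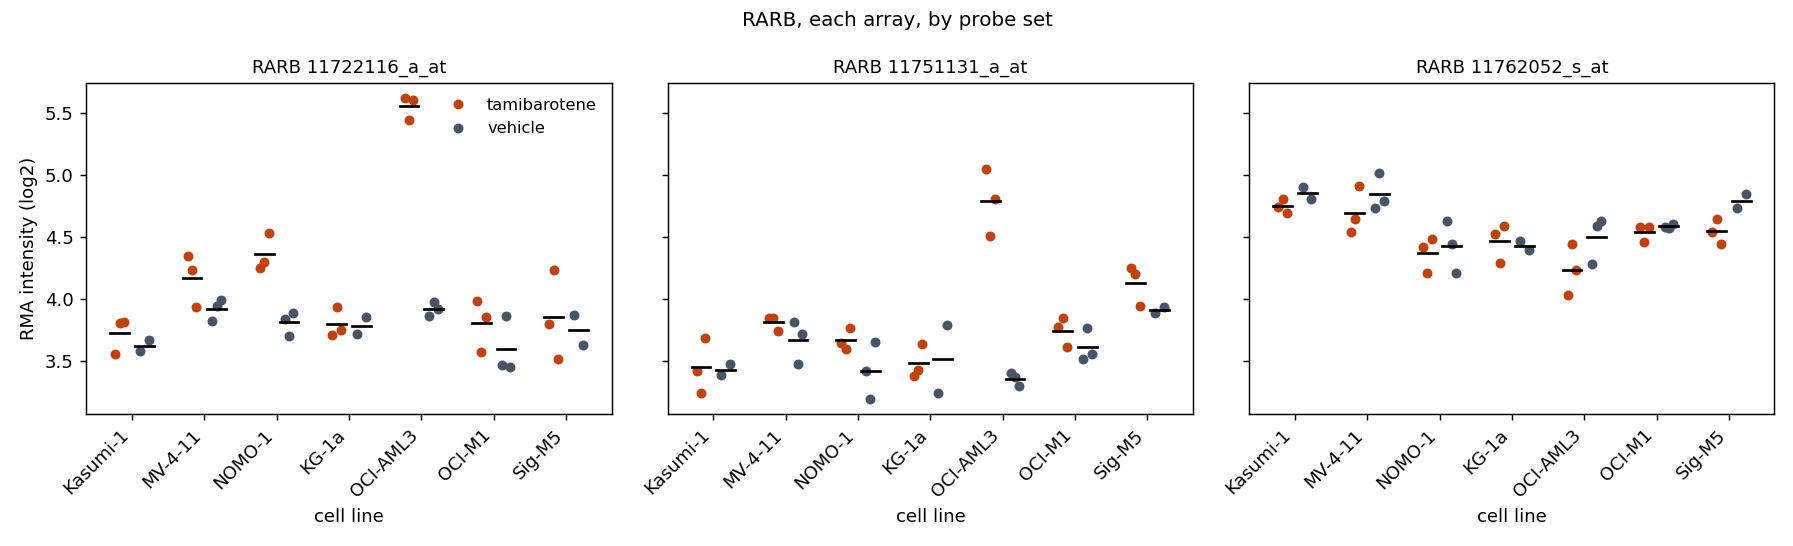
RMA intensity (log2) of the 3 RARB probe sets on each array, by line, with tamibarotene left of vehicle; points are arrays and bars are group means. By the first pair of probe sets the treated OCI-AML3 arrays, at 4.51 to 5.61, sit above all others, and by the third no line separates in that way.

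RARA, the receptor that tamibarotene activates, was not called in 6 of the 7 lines and fell in Sig-M5 by 6 of its 10 probe sets. The largest fall was by 11736235_x_at, whose treated Sig-M5 arrays read 6.67, 6.43 and 6.64, against 7.21 and 7.54 in vehicle, a change of -0.80 ± 0.17 (1.74-fold lower, adjusted p = 0.000805 in limma). By 11727352_x_at, the brightest of the 10, they read 8.53, 8.29 and 8.49, against 8.85 and 9.36 in vehicle, a change of -0.67 ± 0.18 (adjusted p = 0.00625). By 11722900_s_at they read 7.64, 7.27 and 7.65, against 8.08 and 8.00 in vehicle, a change of -0.52 ± 0.15 (adjusted p = 0.0106). The treated arrays were lower in each case, but 14% of all probe sets were called lower in Sig-M5 and 26.6% in either direction, against 36% of the receptor probe sets in either direction.

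The remaining falls in Sig-M5 were -0.61 by 11727351_a_at, -0.46 by 11722901_a_at and -0.36 by 11750414_s_at, and the 4 RARA probe sets that were not called lay between -0.28 and -0.08. None of the 6 calls held under every alternative. With the actin difference as a covariate 5 of the 6 were lost, and that of 11727351_a_at was kept. Under this covariate the falls by 11722901_a_at and 11750414_s_at were no smaller, at -0.46 ± 0.25 (SE) and -0.40 ± 0.17. Those by 11722900_s_at, 11727352_x_at and 11736235_x_at were smaller, at -0.29 ± 0.21, -0.38 ± 0.26 and -0.59 ± 0.25. Without vehicle replicate 2, the array with the largest actin difference, 4 no longer passed, with adjusted p from 0.0502 to 0.246. The falls of 2 of them were no smaller without it, at -0.56 by 11722900_s_at and -0.55 by 11722901_a_at with 1 array fewer, and those of the others were -0.63 by 11736235_x_at and -0.41 by 11727352_x_at. Without vehicle replicate 1, 11722900_s_at, 11722901_a_at, 11727351_a_at and 11750414_s_at no longer passed, at -0.48, -0.36, -0.38 and -0.28, with adjusted p from 0.0683 to 0.23. What part RNA integrity had in the falls was not tested.

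In OCI-AML3 all 10 RARA probe sets were below 0, from -0.48 to -0.03, and none was called. By 11722900_s_at the treated arrays read 7.92, 7.95 and 7.94, against 8.26, 8.49 and 8.30 in vehicle, without overlap (change -0.41 ± 0.14, adjusted p = 0.0563 in limma). By 11751510_s_at the change was -0.48 ± 0.16 (adjusted p = 0.0538). 4 of the 10 had an unadjusted p under 0.05. The share of all probe sets at that threshold was not counted in this fit, and with OCI-AML3 fitted alone it was 21.9%. In MV-4-11, where CD38 rose most, the 10 changes lay between -0.26 and 0.14, and 11722900_s_at read 8.59, 8.67 and 8.52 in treated arrays, against 8.54, 8.40 and 8.70 in vehicle. Averaged over the 7 lines no RARA probe set was called (-0.13 to 0.01). At an unadjusted p under 0.05 there was 1 of 10, and the share of all probe sets was not counted.

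The vehicle level of RARA differed between lines by all 10 probe sets in the F test, which called 77.5% of all probe sets. MV-4-11, OCI-AML3 and Sig-M5 held the highest 3 places by 8 of the 10. These were the 8 that passed the filter on dim probe sets. Among them, 11751510_s_at and 11762202_x_at did not separate Sig-M5 from KG-1a, the next line down, by the 95% interval. Sig-M5 stood at 6.38 against 6.37 in KG-1a by 11751510_s_at, and at 5.84 against 5.80 by 11762202_x_at. The highest line was MV-4-11 by 5 probe sets and Sig-M5 by 5, and the lowest was NOMO-1 by 6 and Kasumi-1 by 4. By the 95% interval MV-4-11 was not separated from the next line by any of its 5, nor Sig-M5 by 11727350_x_at. Sig-M5 vehicle replicate 2 is the array with the actin difference of 1.89. Without it MV-4-11 was first by 11727350_x_at (6.92, against 6.91 in Sig-M5) and Sig-M5 by 11750414_s_at (6.16, against 6.12 in MV-4-11). By 11722900_s_at the vehicle means were 8.55 ± 0.15 (SD, n = 3) in MV-4-11, 8.35 ± 0.12 (n = 3) in OCI-AML3, 8.04 ± 0.05 (n = 2) in Sig-M5, 7.42 ± 0.05 (n = 2) in KG-1a, 7.23 ± 0.23 (n = 3) in OCI-M1, 6.94 ± 0.25 (n = 3) in NOMO-1 and 6.29 ± 0.20 (n = 2) in Kasumi-1. The 95% interval of the difference between neighbours excluded 0 between Sig-M5 and KG-1a, between OCI-M1 and NOMO-1, whose arrays overlapped, and between NOMO-1 and Kasumi-1. The others in that order were not separated.

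By 11727352_x_at the order was different at both ends. Sig-M5 came first at 9.11 ± 0.36 (SD, n = 2), apart from OCI-AML3 at 8.49 ± 0.33 (n = 3) and MV-4-11 at 8.38 ± 0.04 (n = 3). Without its vehicle replicate 2 Sig-M5 was at 8.85 and still first. OCI-M1, KG-1a and Kasumi-1 followed at 7.80, 7.61 and 7.58, with no separation among them, and NOMO-1 was last at 7.17 ± 0.34 (n = 3). Kasumi-1 was thus last by the first probe set and not separated from KG-1a by the second. Across the 45 pairs of RARA probe sets, Pearson's r over the 7 vehicle means ran from 0.168 to 0.987 with a median of 0.759. Over the 7 changes it ran from -0.08 to 0.971 with a median of 0.645. 5 of the 25 receptor probe sets carry the suffix _x_at and 6 the suffix _s_at, the manufacturer's marks for probes that may match more than 1 transcript or sequence, and 8 of these 11 are RARA's.

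**Figure D3:**
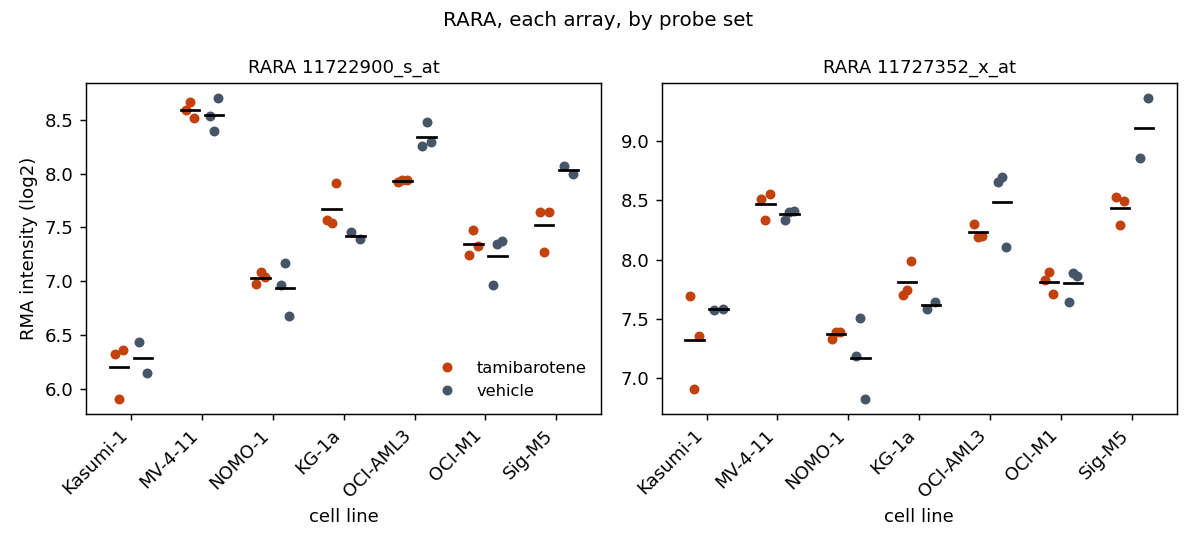
RMA intensity (log2) of RARA on each array by 2 probe sets, by line, with tamibarotene left of vehicle; points are arrays and bars are group means. The spread between lines exceeds that between arms, and treated Sig-M5 arrays lie below vehicle Sig-M5 arrays by both.

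RARG, the third retinoic acid receptor, known mostly from skin, was not called in any line or in the average by any of its 5 probe sets. Its changes in single lines lay between -0.24 and 0.39. The largest was in Kasumi-1 by 11741064_a_at, 0.39 ± 0.13 (adjusted p = 0.102 in limma), with a 95% interval of 0.12 to 0.67. At an unadjusted p under 0.05 there were 2 RARG probe sets in Kasumi-1 and 1 in MV-4-11, and 0 in the other lines. With these lines fitted alone, 8.76% of all probe sets in Kasumi-1 and 12.8% in MV-4-11 were under that threshold. All 5 were above 0 in Kasumi-1, MV-4-11, OCI-AML3 and OCI-M1, by as little as 0.004 in OCI-AML3. All 5 were below 0 in Sig-M5, where the 2 vehicle arrays differ in RNA integrity.

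RARG varied less between lines than RARA. Its vehicle means spanned 0.61 to 0.76 over the 7 lines, against 0.80 to 2.26 for the RARA probe sets. Sig-M5 was highest by all 5, for example at 7.89 ± 0.19 (SD, n = 2) by 11748477_a_at, next to 7.63 ± 0.04 (n = 3) in OCI-AML3. That gap between Sig-M5 and the next line was outside the 95% interval for 3 probe sets and inside it for the other pair, and no other neighbours were separated. All 5 read higher in Sig-M5 vehicle replicate 2, the array with the actin difference of 1.89, than in replicate 1. Without replicate 2 Sig-M5 was highest by 4 of the 5, at 7.76 by 11748477_a_at, and by 11719944_x_at it was at 5.54, below OCI-M1 at 5.72. The F test passed for 4 of the 5, and gave adjusted p = 0.0713 for 11719944_x_at.

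RXRA, the common DNA-binding partner of the retinoic acid receptors, fell in MV-4-11, OCI-AML3 and Sig-M5 by both of its probe sets. In Sig-M5 11742844_a_at read 6.07, 6.16 and 6.32 in treated arrays, against 8.48 and 8.59 in vehicle, a change of -2.35 ± 0.15 (SE, 5.09-fold lower, adjusted p = 5.05e-13 in limma). In MV-4-11 it read 9.07, 8.92 and 9.42 in treated arrays, against 10.02, 9.79 and 10.39 in vehicle, a change of -0.93 ± 0.14 (1.91-fold lower, adjusted p = 8.08e-06). In OCI-AML3 it read 8.79, 9.04 and 8.76 in treated arrays, against 9.70, 9.77 and 9.67 in vehicle, a change of -0.85 ± 0.14 (1.80-fold lower, adjusted p = 2.86e-05). The arms did not overlap in any of these lines, in which 14%, 2.57% and 4.46% of all probe sets were called lower.

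The other probe set, 11742843_a_at, fell in the same lines with other sizes. In OCI-AML3 it read 7.22, 7.41 and 7.11 in treated arrays, against 8.31, 8.41 and 8.33 in vehicle, a change of -1.10 ± 0.19 (adjusted p = 8.39e-05 in limma). In Sig-M5 it read 5.20, 5.59 and 4.51 in treated arrays, against 6.22 and 6.18 in vehicle, a change of -1.10 ± 0.21 (adjusted p = 0.000182). In MV-4-11 it read 6.65, 6.66 and 6.95 in treated arrays, against 7.64, 7.36 and 7.80 in vehicle, a change of -0.85 ± 0.19 (adjusted p = 0.00298). Its falls in OCI-AML3 and Sig-M5 were thus of like size, where 11742844_a_at fell much further in Sig-M5. All 6 calls held under every refit that tested the probe set, the actin covariate included, under which 11742844_a_at was at -2.06 in Sig-M5. A minimum log2 change of 1 leaves 3 of the 6, both in Sig-M5 and that of 11742843_a_at in OCI-AML3.

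In the other 4 lines neither probe set was called. In Kasumi-1 the changes were -0.31 (adjusted p = 0.273 in limma) and -0.51 (adjusted p = 0.186). In KG-1a they were -0.15 and -0.23, in OCI-M1 -0.15 and -0.03, and in NOMO-1 -0.08 and 0.10. Treated arrays lay below vehicle arrays by both probe sets in Kasumi-1 and by 11742843_a_at in KG-1a. How often all probe sets separate in this way was not counted. The 95% interval in NOMO-1 ran from -0.36 to 0.19 by 11742844_a_at, which leaves out a fall as large as that in MV-4-11. A test added after the values had been seen set each line against the mean of the other 6. By 11742844_a_at Sig-M5 was lower than the other lines by this measure (-1.94 ± 0.16, adjusted p = 4.03e-10), and NOMO-1, KG-1a and OCI-M1 were higher, by 0.71 (adjusted p = 0.00522), 0.63 (adjusted p = 0.0222) and 0.63 (adjusted p = 0.0131). The means that NOMO-1, KG-1a and OCI-M1 were set against, -0.79 to -0.78, include the -2.35 of Sig-M5. Their gaps thus partly restate the Sig-M5 fall. By 11742843_a_at Sig-M5 (-0.67, adjusted p = 0.0319) and NOMO-1 (0.74, adjusted p = 0.0494) passed. This test called 22.6% of all probe sets for Sig-M5, 2.32% for NOMO-1, 3.43% for KG-1a and 2.51% for OCI-M1, and no receptor probe set for Kasumi-1 (4.16% of all) or MV-4-11 (3.64%).

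Averaged over the 7 lines RXRA fell by 0.69 ± 0.05 by 11742844_a_at (adjusted p = 2.64e-11 in limma) and by 0.53 ± 0.08 by 11742843_a_at (adjusted p = 3.35e-06), where 9.01% of all probe sets were called lower. Without Kasumi-1 and Sig-M5, the lines whose vehicle arrays differed in RNA integrity, the first average was -0.43 (adjusted p = 3.1e-05). RXRA and RARB were the receptors called in the average, with 2 probe sets each, and 21 of the 25 receptor probe sets were not called. Of all probe sets 16.9% were called in this average in either direction, so the receptors as a group were near that share.

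**Figure D4:**
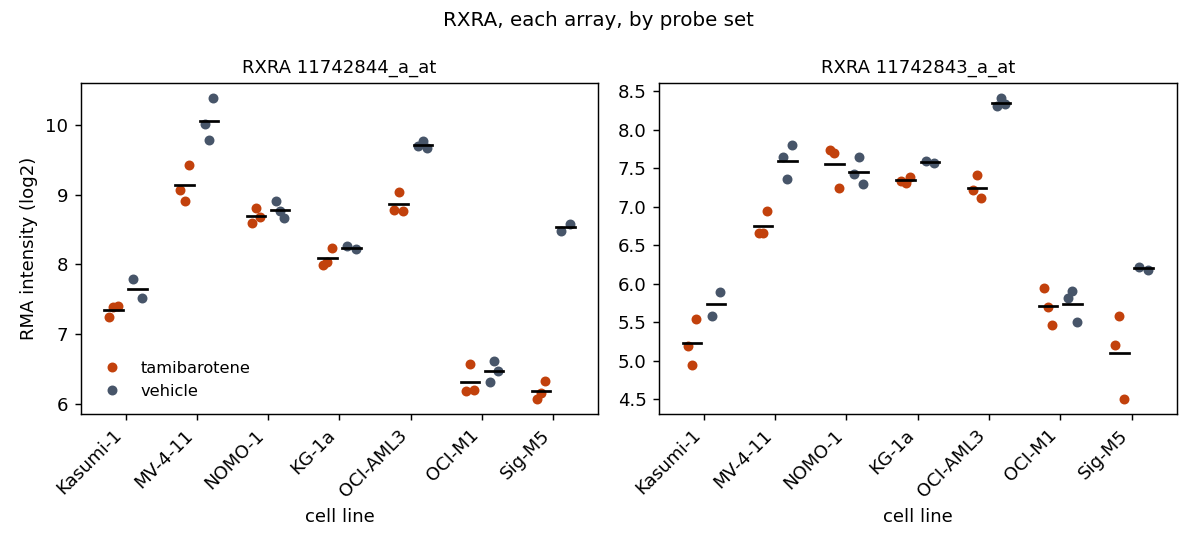
RMA intensity (log2) of both RXRA probe sets on each array, by line, with tamibarotene left of vehicle; points are arrays and bars are group means. Treated arrays lie below vehicle arrays in MV-4-11, OCI-AML3 and Sig-M5, with a change down to -2.35 in Sig-M5, and mix with them in NOMO-1 and OCI-M1.

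RXRA had the widest spread of vehicle levels of the 5 receptors, 3.60 by 11742844_a_at and 2.61 by 11742843_a_at. By the first, MV-4-11 was highest at 10.07 ± 0.30 (SD, n = 3), followed by OCI-AML3 at 9.72 ± 0.05 (n = 3), NOMO-1 at 8.78 ± 0.13 (n = 3), Sig-M5 at 8.53 ± 0.08 (n = 2), KG-1a at 8.24 ± 0.03 (n = 2), Kasumi-1 at 7.65 ± 0.19 (n = 2) and OCI-M1 at 6.47 ± 0.15 (n = 3). Neighbours were separated by their 95% interval except NOMO-1 from Sig-M5 and Sig-M5 from KG-1a. By the second, OCI-AML3 was highest at 8.35 ± 0.05 (n = 3), apart from MV-4-11, KG-1a and NOMO-1 at 7.60, 7.57 and 7.46, which were not separated. Sig-M5 followed at 6.20, and OCI-M1 and Kasumi-1 were lowest, both at 5.74. The 2 probe sets thus placed Kasumi-1 and Sig-M5 differently, with r = 0.808 over the 7 vehicle means and r = 0.801 over the 7 changes.

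RXRB, the retinoid X receptor found in most tissues, was called once, by 11754991_a_at in Sig-M5. Its treated arrays read 5.92, 5.81 and 5.93, against 5.55 and 4.89 in vehicle, a change of 0.67 ± 0.19 (adjusted p = 0.00763 in limma, 12.6% of probe sets called higher). The lower vehicle reading is replicate 2, the array with the largest actin difference, and without it the change was 0.34 (adjusted p = 0.364). With the actin difference as a covariate it was 0.60 (adjusted p = 0.205). The other 4 RXRB probe sets were not called in any line. Of these 11717208_at in OCI-AML3 was at 0.46 ± 0.17 (adjusted p = 0.0983), with 7.22, 7.40 and 7.40 in treated arrays, against 6.70, 7.08 and 6.84 in vehicle.

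In vehicle arrays the 3 brighter RXRB probe sets placed Kasumi-1 highest. By 11717209_s_at it stood at 9.10, apart from KG-1a at 8.66, and OCI-M1 was lowest at 7.85, apart from NOMO-1 at 8.23. By 11717208_at the ends were also Kasumi-1 at 7.55 and OCI-M1 at 6.36, and by 11754991_a_at they were Kasumi-1 at 6.41 and Sig-M5 at 5.22. The 2 Kasumi-1 vehicle arrays differed from each other by 11717209_s_at, at 9.44 in replicate 2, whose actin difference was 1.18, and 8.76 in replicate 3. Without replicate 2 Kasumi-1 stood close to the next line, at 8.76 against 8.66 in KG-1a by 11717209_s_at and 7.19 against 7.14 in Sig-M5 by 11717208_at, and by 11754991_a_at it was at 6.29, under MV-4-11 at 6.32. The lowest place of Sig-M5 by 11754991_a_at rests likewise on its vehicle replicate 2 (4.89, against 5.55 in replicate 1), without which OCI-M1 was lowest at 5.39. The dim probe sets 11760885_a_at and 11761735_a_at did not pass the F test across lines (adjusted p = 0.2 and 0.179).

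**Figure D5:**
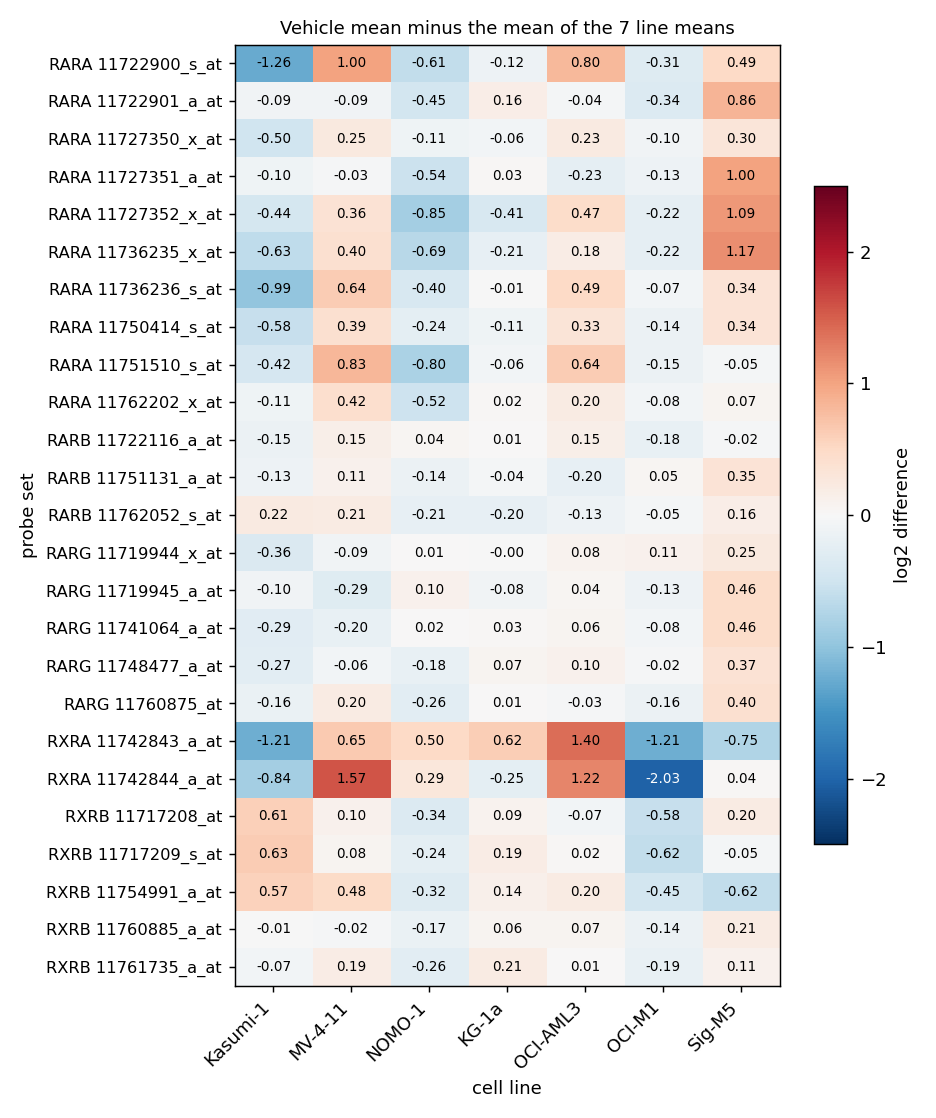
Vehicle level of each of the 25 receptor probe sets (rows) in each of the 7 lines (columns), as the log2 difference from that probe set's own mean over the lines. RXRA spans the widest range, 3.60 by 11742844_a_at. For RARA the highest-ranked lines are MV-4-11, OCI-AML3 and Sig-M5 by 8 of 10 probe sets. Among these, 11751510_s_at and 11762202_x_at do not separate Sig-M5 from KG-1a.

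The F test of whether the response itself differs between lines was passed by 6 of the 25 receptor probe sets, 24%, against 24.8% of all probe sets. They were both RXRA probe sets (adjusted p = 3.57e-09 by 11742844_a_at and 0.00187 by 11742843_a_at in limma), RARB 11722116_a_at (2.67e-06) and 11751131_a_at (1.81e-05), and RARA 11722900_s_at (0.027) and 11750414_s_at (0.0307). The F test of vehicle levels was passed by 21 of the 25, 84%, against 77.5%. The receptors as a group were thus near the share of all probe sets in both tests.

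The genes most like a receptor were taken as the 3 with the highest Pearson's r over the 7 lines, a description over few points that share arrays. For the vehicle level of RARA by 11722900_s_at they were RHOT2 (0.992), METTL26 (0.959) and WDR81 (0.954), among 10739 candidates. By 11727352_x_at they were KMT2E (0.981), SEPTIN9 (0.965) and GIGYF2 (0.964), so the lists of these probe sets share no gene. Other RARA lists do overlap, and that of 11736236_s_at also held RHOT2 (0.974) and METTL26 (0.962). For the vehicle level of RXRA by 11742844_a_at they were MGRN1 (0.978), MOB3A (0.975) and RFLNB (0.971). For the RXRA changes by that probe set, among 2739 candidates, they were NTMT1 (0.988), THRA (0.986) and TMEM121B (0.982). THRA is the thyroid hormone receptor alpha, itself a partner of RXRA. The RXRA change of -2.35 in Sig-M5 lay far outside the -0.93 to -0.08 of the other lines, so Sig-M5 weighs heavily in these r. For the RXRA changes by 11742843_a_at the most alike genes were GART (0.991), EMC1 (0.982) and ASPHD1 (0.979), a list without THRA. For the RARB changes by 11722116_a_at they were FMNL2 (0.993), PRDM1 (0.992) and CCN2 (0.991).

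Of 14 other nuclear receptors, RXRG and partners of RXR, 11 were measured, each by its brightest probe set. RXRG was dim and was not called in any line, with changes from -0.34 in KG-1a to 0.10 in Kasumi-1. In OCI-AML3 1 of the 11 rose and 2 fell, where 4.51% of all probe sets were called higher and 4.46% lower. In Sig-M5 5 fell, where 14% were called lower, a share that also stands behind the Sig-M5 falls of the following lists. PPARG, a fatty acid receptor, rose in OCI-AML3 by 1.27 (adjusted p = 5.88e-07 in limma) and in NOMO-1 by 0.64 (adjusted p = 0.0189), the lines in which RARB was called. VDR, the vitamin D receptor, moved in both directions. It fell in OCI-AML3 by 0.96 (adjusted p = 2.91e-07) and in Sig-M5 by 1.35 (adjusted p = 3.37e-09), and rose in OCI-M1 by 0.93 (adjusted p = 5.93e-06) and in KG-1a by 0.76 (adjusted p = 0.000386). THRA fell in Sig-M5 by 1.40 (adjusted p = 6.46e-09) and in OCI-AML3 by 0.39 (adjusted p = 0.0474). The median change of the list was -0.21 in Sig-M5, against -0.10 over all genes.

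Of 9 corepressor complex genes, 7 were measured, and TBL1X, a subunit that the ligand-free receptor recruits, moved in more lines than any other. It fell by 1.19 in MV-4-11 (adjusted p = 5.46e-08 in limma), 1.11 in OCI-AML3 (adjusted p = 1.92e-07), 1.93 in Sig-M5 (adjusted p = 2.25e-11) and 0.68 in KG-1a (adjusted p = 0.00629), and by 0.83 in the average. The first 3 of these are the lines in which RXRA fell. HDAC3, the histone deacetylase of the same complex, fell in Sig-M5 by 0.47 (adjusted p = 0.00622). Of 8 coactivators 7 were measured and 1 was called in a single line, the methyltransferase CARM1, which fell by 1.19 in Sig-M5 (adjusted p = 6.96e-08). Of 9 other regulators and partners of RARA 8 were measured, and PML and ZBTB16, both known as fusion partners of RARA, fell in Sig-M5 by 0.50 and 1.01 (adjusted p = 0.00575 and 0.000753). Of the 4 retinoid binding proteins 2 were measured, and FABP5 fell by 0.55 in OCI-AML3 (adjusted p = 0.00107) and CRABP2 by 0.69 in Sig-M5 (adjusted p = 0.000703).

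Some of the receptors' known targets rose in each line, also where no receptor probe set was called. Of 15 retinoic acid target genes, 14 were measured. Those that rose numbered 2 in Kasumi-1, where 0.923% of all probe sets were called higher, and 6 in MV-4-11 (3.45%). KG-1a had 5 (0.885%) and NOMO-1 also 5 (2.03%). OCI-AML3 had 7 (4.51%), OCI-M1 5 (0.633%) and Sig-M5 6 (12.6%), and 4 fell in Sig-M5 (14% called lower). In OCI-M1, in which all receptor changes stayed uncalled, CYP26A1, the enzyme that breaks down retinoic acid, rose by 7.10 (adjusted p = 1.1e-24 in limma). It rose by 5.97 in OCI-AML3 (adjusted p = 4.25e-23) and by 3.78 in MV-4-11 (adjusted p = 2.54e-18). DHRS3, which turns retinal back to retinol, rose in 6 lines, least in OCI-M1 (1.92) and most in MV-4-11 (6.86), and was not called in Kasumi-1. The median change of the list was 0.93 in OCI-AML3, 0.44 in MV-4-11, 0.25 in Kasumi-1, 0.24 in Sig-M5, 0.20 in NOMO-1 and 0.09 in OCI-M1, against -0.10 (in Sig-M5) to 0.02 (in NOMO-1) over all genes. In KG-1a it was -0.02, as over all genes.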

How the data were processed

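The values are normalized log2 intensities as deposited, from Affymetrix PrimeView arrays. They were made with RMA and the affy package (version not stated), per the submitters' processing notes. Whether all arrays were normalized together is not given in the sources used here, and no normalization was added. Gene names are those of the platform annotation, under which 44988 probe sets name 1 gene, 1832 several and 2473 none, and 102 control probe sets were left out. Platform names can be old and were not mapped to a genome.

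All 39 arrays were fitted together in R 4.3.3 with limma 3.58.1, using 14 group means (lmFit, then eBayes with neither trend nor robust set, leaving 25 residual degrees of freedom), with p-values adjusted by Benjamini-Hochberg over 49293 probe sets. The contrasts tested were the change with tamibarotene in every line, the unweighted mean of these changes, whose error leaves out the spread between lines, and moderated F tests between lines. The data.table package (1.17.8) read the tables, and figures were drawn with Python 3.11.15, pandas 2.3.3 and matplotlib 3.10.9. The fit was tested on simulated data. Precision is limited by how few arrays each group holds.

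The receptors, the gene lists and the alternatives were chosen with earlier results of these data known. Named genes were all receptor probe sets, the 3 most alike genes for probe sets whose vehicle means span at least 1 or that were called in at least 2 lines, and up to 3 called members of each list and contrast, with CD38, DHRS3 and CYP26A1 as a check of the drug. Alternatives were quantile normalization, a filter on dim probe sets, 1 probe set for each gene, array weights, an eBayes prior with trend and robust set, the actin difference as a covariate, the replicate number as a block, a minimum change, each line fitted alone, and arrays or lines left out. Deviations of same-numbered arrays correlated above 0.1 in every pair only in OCI-M1 (0.125 to 0.339). Some single pairs of other lines were higher, with 0.659 for replicate 2 of MV-4-11. For replicate 3 the value was 0.435 in OCI-AML3, and NOMO-1 had 0.531. Replicate 1 was under 0.1 in each of these lines (-0.0442 in OCI-AML3, 0.0898 in MV-4-11, 0.0153 in NOMO-1). Without correlations of differently numbered arrays to set beside them, these values cannot decide in which lines the numbers pair samples. The highest correlation between arrays of a group was 0.997, and none was taken as a copy.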

Additional observations from a re-analysis of the deposited data

Results flagged for a closer look

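6 receptor probe sets gave responses that differed between the 7 lines by the moderated F test in limma, adjusted over all probe sets. For RXRA the adjusted p was 3.57e-09 by 11742844_a_at and 0.00187 by 11742843_a_at, with changes from -2.35 in Sig-M5 to -0.08 in NOMO-1 by the first and from -1.10 in Sig-M5 to 0.10 in NOMO-1 by the second. For RARB it was 2.67e-06 by 11722116_a_at and 1.81e-05 by 11751131_a_at, with changes of 1.64 and 1.43 in OCI-AML3 and no more than 0.55 and 0.25 in any other line. For RARA it was 0.027 by 11722900_s_at, with changes from -0.52 in Sig-M5 to 0.25 in KG-1a, and 0.0307 by 11750414_s_at, with changes from -0.36 in Sig-M5 to 0.23 in Kasumi-1. In Sig-M5 both vehicle arrays had larger actin differences than the treated arrays (0.81 and 1.89, against 0.31 to 0.34), as had both in Kasumi-1 (1.18 and 0.30, against 0.20 to 0.22) and 2 of 3 in OCI-M1 (0.52 and 0.56, against 0.10 to 0.24), and the part of RNA integrity in the RARA values was not tested.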

How the results depend on the processing

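Of 20 called receptor changes, the averages included, 12 were called under every refit that tested them, all of them RXRA changes or the RARB changes in OCI-AML3 and the average. A log2 change of at least 1 kept 5 of these 12, RARB in OCI-AML3 and 3 RXRA changes, and none of the averages. The 8 others, RARA and RXRB in Sig-M5 and RARB in NOMO-1, were lost under at least 1 refit. Of the uncalled changes 17 were called under some alternative, and 175 of 2945 comparisons of uncalled changes turned sign and were given no direction. No called change reversed. Vehicle levels moved by over 1 SD in 51 of 975 comparisons, 20 with quantile normalization and 31 with the actin covariate. With 1 probe set for each gene there were 4 receptor calls over 5 genes, and with a log2 change of at least 1 there were 5, against 16. Leaving out single arrays gave 12 to 18. The replicate block called RXRA 11742843_a_at in Kasumi-1 (-0.50, adjusted p = 0.0238 in limma) and changed no receptor call in OCI-M1.

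Counts over all probe sets are given in the order Kasumi-1, MV-4-11, NOMO-1, then KG-1a and OCI-AML3, then OCI-M1 and Sig-M5. They were 1443, 2967, 1407, 1041, 4421, 491 and 13094, with 8351 in the average, 12224 for the response F test and 38219 for the vehicle F test. With 1 probe set for each gene, fewer being tested, they were 515, 1399, 631, 560, 2150, 197 and 4874, and 3460, 4974 and 14256. A log2 change of at least 1 left 120, 817, 304, 271, 888, 89 and 2792, and 117 in the average. Array weights, whose estimation stopped before its tolerance, gave 39, 6022, 8459, 5149, 13462, 1320 and 7946, and 21083 for the response F test. The dim filter gave 880 in NOMO-1, 323 in OCI-M1 and 23633 for the vehicle F test. The actin covariate gave 130 in Kasumi-1, 4142 in Sig-M5 and 4898 in the average. The replicate block gave 4968 in Kasumi-1 and 2171 in NOMO-1. Fitted alone in limma, Kasumi-1 gave 0 (4320 at an unadjusted p under 0.05), MV-4-11 1912, NOMO-1 387, KG-1a 1653 and OCI-M1 114. Without Kasumi-1 and Sig-M5 the average gave 5439 and the response F test 5835. Leaving out single arrays gave 36 (without Kasumi-1 vehicle replicate 2) to 5401 (without replicate 3), 2358 to 2677, 860 to 2661 (without NOMO-1 vehicle replicate 3 or 2), 476 to 855 (without KG-1a vehicle replicate 1 or treated replicate 3), 3451 to 3710, 305 to 679 (without OCI-M1 vehicle replicate 3 or 1) and 6950 (without Sig-M5 vehicle replicate 2) to 13095, with 6948 to 9991 in the average, 9176 to 14246 for the response and 36331 to 38666 for the vehicle F test. Causes were not tested, and dim probe sets, all of RARB's among them, limit what small changes can show.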

Other observations

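The repeat spaced by 5 bases that RARB holds was also looked up in the other genes of the RefSeq windows, as a description made after the RARB values were known. Windows of 29 genes held it, RARB among them, and 15 genes other than RARB were measured, by 35 probe sets. In OCI-AML3 10 of the 35 were called higher in limma and 0 lower, at backgrounds of 4.51% and 4.46% of all probe sets. The 10 belong to 4 genes, with 5 of them to CFLAR, so they are not independent. In MV-4-11 4 were higher and 0 lower, in NOMO-1 3 and 0, in KG-1a 1 and 0, in OCI-M1 1 and 1, in Sig-M5 2 and 2, and in Kasumi-1 0 and 0.

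The largest changes among these genes were in CYP26A1, whose site lies at chr10:93073803-93073819 of GRCh38.p14, and BATF2, a transcription factor gene, at chr11:64990290-64990306. Both sites are shown with the repeated motifs in capitals, each on the strand on which it matched.
CYP26A1: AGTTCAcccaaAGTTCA
BATF2: AGTTCAtgtgaGGGTCA
By its 2 probe sets BATF2 rose in OCI-AML3 by 2.33 and 3.11 (adjusted p = 2.19e-11 and 9.26e-13), in MV-4-11 by 1.58 and 1.80 (adjusted p = 8.43e-08 and 1.32e-07), and in NOMO-1 by 1.07 and 0.96 (adjusted p = 0.000202 and 0.00532). OCI-AML3 and NOMO-1 are also the lines in which RARB was called, in NOMO-1 by 1 of its 3 probe sets. RARB was not called in MV-4-11, where BATF2 rose more than in NOMO-1. CYP26A1 rose most in OCI-M1, by 7.10, where RARB and BATF2 were not called.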
